A study of Homo sapiens with 6 samples.

Results

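The genes described here are 10 that make, degrade, carry or read retinoic acid: the synthesis genes ALDH1A1, ALDH1A2 and ALDH1A3, the breakdown genes CYP26A1 and CYP26B1, the carrier genes CRABP1 and CRABP2, and the receptor genes RARA, RARB and RARG. They were taken by symbol from a list chosen with earlier results of these data known, with no threshold on their values, and are 10 of the 57341 named genes in the table of read counts. RNA sequencing compared 3 libraries labelled H295R with 3 libraries labelled H295R-PM-Ptc+. H295R is a human line from an adrenocortical carcinoma that makes steroid hormones, and its parental cells formed the first group. The second group was a subpopulation of the same line, sorted with an antibody for cells carrying the Hedgehog receptor Patched (gene PTCH1) at the plasma membrane and then expanded. Neither group was treated, and both were kept in DMEM/F12 with NuSerum, ITS and antibiotics. The labels do not say that the replicates came from separate cultures, so p-values measure the spread between these libraries, which may be technical. These are bulk samples, in which fewer cells of a type and less RNA per cell cannot be told apart.

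Retinoic acid is made from vitamin A in a pair of steps, an oxidation of retinol to retinaldehyde and then of retinaldehyde to retinoic acid, and the ALDH1A enzymes carry out the second. CRABP proteins carry the acid in the cytoplasm, CYP26 enzymes of the cytochrome P450 family oxidize it to inactive products, and the receptors RARα, RARβ and RARγ bind DNA as partners of RXR receptors and switch on target genes when the acid is bound. CYP26A1 and RARB are themselves classical targets of the receptors. In several tissues and tumours ALDH1A1 is also used as a marker of stem-like cells, and it is known to be expressed in the adrenal cortex.

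The libraries held 23264403 to 25813247 counts, and 16710 genes had enough counts to be tested. PTCH1, the gene of the sorted receptor, went against the labels. Its counts were 441, 559 and 579 in replicates 1, 2 and 3 labelled H295R and 248, 326 and 319 in those labelled H295R-PM-Ptc+, a log2 fold change of -0.81 (SE 0.147, adjusted p = 0.0207). The adjusted p was 0.0799 or 0.0921 without replicate 2 or 3 labelled H295R and 0.0618 without replicate 2 labelled H295R-PM-Ptc+. It stayed under 0.05 without each of the other libraries. With the replicate number as a block it was 1.72e-06, by DESeq2 9.91e-05 and without both replicate 1 libraries 3.68e-04. The paper reports PTCH1 RNA and protein as higher in the sorted cells. The study's own normalized table holds scaled copies of the same 6 columns with the group names exchanged. Every direction below is therefore that of the libraries as labelled, and it would turn if the labels were exchanged. Of the adrenocortical markers, NR5A1 and STAR averaged 359 and 347 CPM (counts scaled to the effective library size), while MLANA was at 0. Replicate 1 of both groups stood apart from replicates 2 and 3 on the second principal component, which held 27.6% of the variance.

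Sequences upstream of 3 members are shown first because they bear on which members are targets of the receptors. Windows reaching 250 bases upstream of RefSeq gene starts (GRCh38.p14) were searched on both strands, and all 10 members had at least 1 window, 17 in all. A DR5 retinoic acid response element, a direct repeat of the receptor half-site with 5 bases between, was present in 2 of the 17 windows and in 26 of all 35116 windows (0.074%). Those 2 windows belonged to RARB and CYP26A1. Both are the classical targets named above and were on the list from the start, so these shares are no test of enrichment. The element lay 36 bases before a RefSeq start of RARB, on the strand of the gene. In CYP26A1 it lay 73 bases before a RefSeq start, on the opposite strand. Both starts, and the elements, lie inside the longer spans of these genes in the annotation of the counts, which are given below. The half-sites are in capitals in these lines, at chr3:25428204-25428233 (plus strand) and chr10:93073797-93073826 (plus strand).
RARB: gggtagGGTTCAccgaaAGTTCActcgcat
CYP26A1: taaagaTGAACTttgggTGAACTaattgtc
A DR2 element, with 2 bases between the half-sites, was in none of the 17 windows and in 0.0313% of all windows. ALDH1A1 held neither element in its window. The 247 bases upstream of a RefSeq start of ALDH1A1, at chr9:72953057-72953303 on the minus strand, are printed because ALDH1A1 was the member that passed the test below. This stretch too lies inside the longer span of the gene in the annotation of the counts. The capitals mark a CCAAT motif 69 bases before that RefSeq start. The start lies 3 bases past the printed stretch, because the last 3 are exonic in the annotation of the counts. That motif, read on both strands, was in 5 of the 17 windows and in 32.0% of all windows.
ALDH1A1: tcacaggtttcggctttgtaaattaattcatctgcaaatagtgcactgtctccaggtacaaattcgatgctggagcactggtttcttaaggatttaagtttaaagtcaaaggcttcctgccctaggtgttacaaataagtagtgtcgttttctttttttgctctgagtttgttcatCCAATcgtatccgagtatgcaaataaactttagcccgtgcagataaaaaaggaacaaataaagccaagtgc
These matches describe letters in a window and are not measurements of binding.

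The 10 genes spanned a wide range of RNA levels. On the scale of CPM per kb of exon, which allows genes of different length to be compared, ALDH1A1 was highest, at 45.2 ± 5.71 (SD, n = 3) in the libraries labelled H295R, and above 95.2% of all tested genes by its mean over the 6 libraries. RARG followed at 13.1 ± 1.07 CPM per kb. CYP26B1 and RARA came next at 3.68 ± 0.154 and 3.57 ± 0.342 CPM per kb, and their libraries overlapped, so that their order did not exceed the spread. CRABP2 stood at 0.563 ± 0.125 CPM per kb, below RARA in every library. The other 5, CYP26A1, CRABP1, RARB, ALDH1A3 and ALDH1A2, lay between 0.104 and 0.00466 CPM per kb, and each overlapped the next in that order. Among libraries labelled H295R-PM-Ptc+ the order began ALDH1A1, RARG, RARA, CYP26B1 and CRABP2, with no overlap between neighbours down to CYP26A1. There RARA was at 3.95 ± 0.247 and CYP26B1 at 2.81 ± 0.421 CPM per kb.

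**Figure D1:**
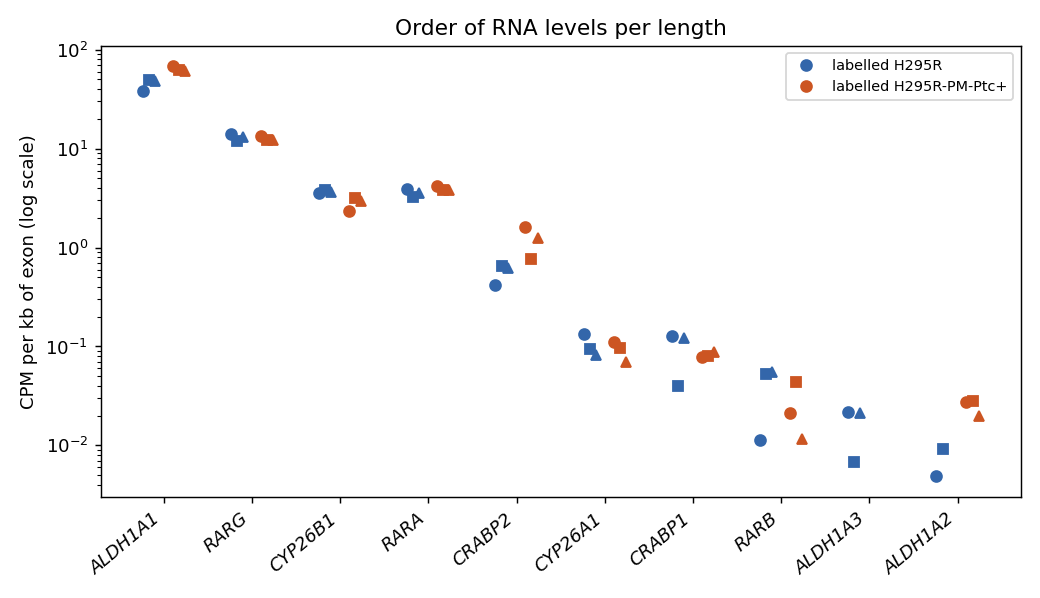
RNA level of the 10 genes in CPM per kb of exon (log scale), with 1 point per library, blue for libraries labelled H295R and orange for those labelled H295R-PM-Ptc+ (circles, squares and triangles are replicates 1, 2 and 3; libraries at 0 have no point). In the libraries labelled H295R the means of the upper genes run from 45.2 for ALDH1A1 to 0.563 for CRABP2. The other 5 genes have means at or below 0.104 there, and their highest single library is at 0.135.

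Between the groups, 1 of the 10 members passed the test. ALDH1A1 RNA rose 1.41-fold in the libraries labelled H295R-PM-Ptc+. CYP26B1 was lower and CRABP2 higher in every library labelled H295R-PM-Ptc+ than in any labelled H295R, without passing. That test used the group only and left out the replicate number. With the replicate number as a block in edgeR's test both passed (adjusted p = 0.00229 and 0.0180), beside 22.5% of all tested genes. RARA and RARG overlapped between the groups, and the other 5 members had too few counts to be tested. Of the 5 members tested, 1 was called higher and 0 lower by edgeR's quasi-likelihood test at a Benjamini-Hochberg adjusted p under 0.05, beside 3.73% of all tested genes called, 2.42% higher and 1.32% lower. The unadjusted p was under 0.05 for 3 of the 5, beside 17.3% of all tested genes. The groups did not overlap in 3 of the 5, beside 23.5% of all tested genes. The median log2 fold change of the 5 was 0.15, and that of all tested genes was 0.00094.

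**Figure D2:**
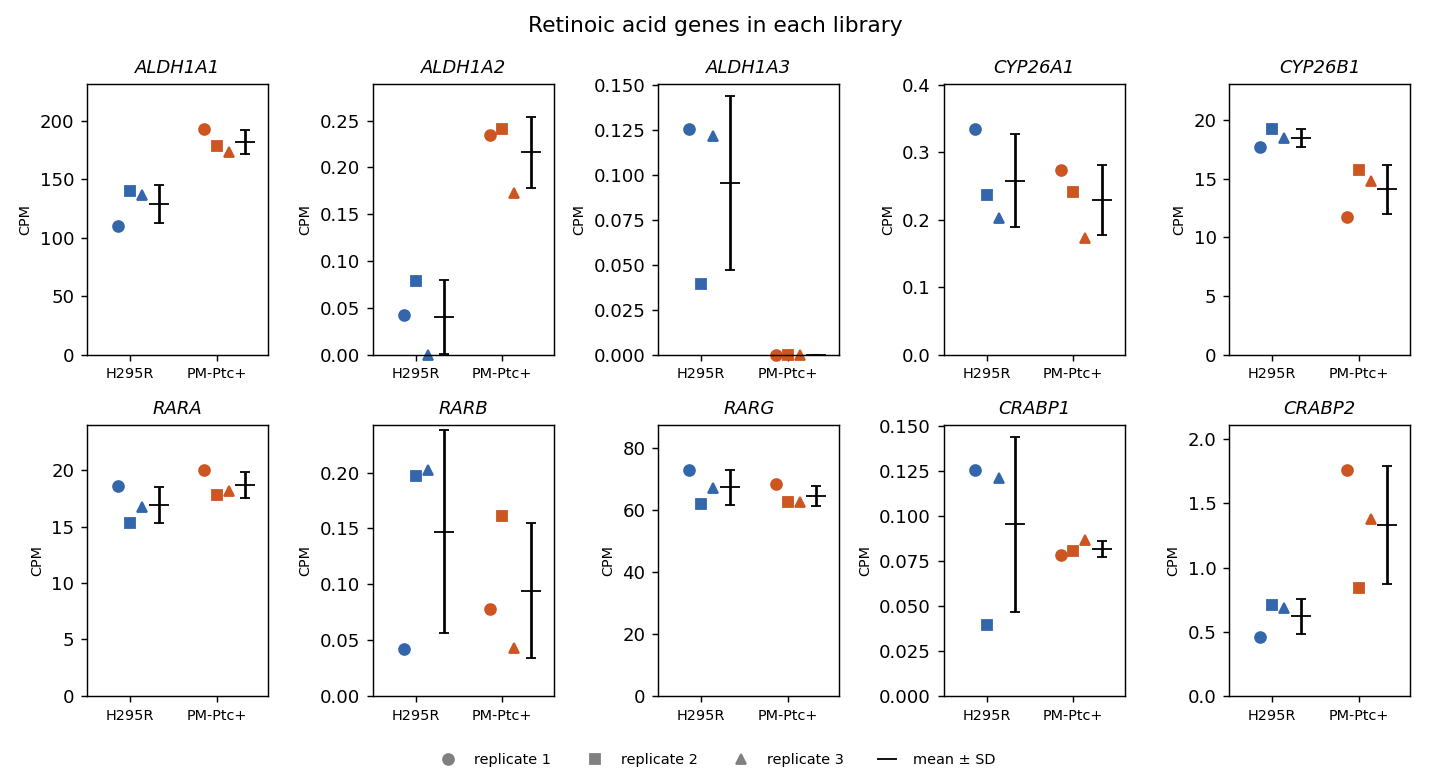
CPM of each gene in each library (blue, labelled H295R; orange, labelled H295R-PM-Ptc+; symbols mark the replicate number), with the mean and SD of 3 libraries beside them, each panel on its own linear axis from 0. ALDH1A1 runs from 110 to 140 CPM in the libraries labelled H295R and from 174 to 193 CPM in the others, while RARA and RARG overlap.

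ALDH1A1, on the minus strand of chromosome 9 (GRCh38, 72900662 to 73080442), had counts of 2631, 3554 and 3371 in replicates 1, 2 and 3 labelled H295R and 4933, 4423 and 4018 in those labelled H295R-PM-Ptc+. In CPM these were 110, 140 and 136 against 193, 178 and 174. The 3 libraries labelled H295R-PM-Ptc+ were all above the 3 labelled H295R, and replicate 1 was the lowest of one group and the highest of the other. The means were 129 ± 16.3 and 181 ± 10.2 CPM (SD, n = 3 each), for a log2 fold change of 0.49 (SE 0.103, adjusted p = 0.0354) and a fold of 1.41 (95% interval 1.20 to 1.66). Within each replicate number, on the scale of log2(CPM + 0.1), the differences were 0.81, 0.35 and 0.35. The adjusted p was near the threshold and was 0.0627 without replicate 2 labelled H295R, 0.1002 without replicate 3 labelled H295R, and 0.0862, 0.112 and 0.104 without replicate 1, 2 or 3 labelled H295R-PM-Ptc+. These fits called 1.28% to 2.53% of all tested genes, beside 3.73% with all libraries. Without both replicate 1 libraries the log2 fold change was 0.35, with an adjusted p of 0.00154. In other fits the adjusted p was 0.0251 without replicate 1 labelled H295R, 8.19e-05 with the replicate block, 0.00178 by DESeq2 and 0.00152 with low counts kept. The replicate block called 22.5% of all tested genes.

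The other members that make retinaldehyde into retinoic acid were close to the limit of counting. ALDH1A2 (chromosome 15, 57953424 to 58497866) had counts of 1, 2 and 0 in the libraries labelled H295R and 6, 6 and 4 in those labelled H295R-PM-Ptc+. Every library of the second group was higher, and the sums of 3 and 16 counts gave a ratio of 5.37 after scaling to library size, with a 95% exact interval of 1.54 to 28.7 that covers counting error only. ALDH1A3 (chromosome 15, 100877714 to 100916626) had 3, 1 and 3 counts against 0, 0 and 0. Both groups were at or under the 3 counts per library that a count of 0 allows, so no fold is given. When genes with low counts were not removed, the adjusted p was 0.181 for ALDH1A2 and 0.214 for ALDH1A3. ALDH1A1 made up at least 99.9% of the summed CPM per kb of the 3 ALDH1A genes in every library.

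Of the breakdown genes, CYP26B1 supplied most of the RNA. CYP26B1 (chromosome 2, 72129238 to 72148038) had counts of 423, 489 and 456 in the libraries labelled H295R and 299, 391 and 343 in those labelled H295R-PM-Ptc+, or 18.5 ± 0.774 and 14.1 ± 2.11 CPM (SD, n = 3 each). All 3 libraries of the second group were lower, and replicate 1 was the lowest. The log2 fold change was -0.39 (SE 0.120, adjusted p = 0.121), with replicate differences of -0.59, -0.29 and -0.31. With the replicate number as a block the adjusted p was 0.00229, and without both replicate 1 libraries it was 0.0491 for a log2 fold change of -0.30 (22.5% and 12.0% of all tested genes were called in those fits). CYP26A1, the form most strongly induced by the acid in many cells (chromosome 10, 93073475 to 93077890), had 8, 6 and 5 counts against 7, 6 and 4. The groups overlapped, and the ratio of the summed counts was 0.900 (95% interval 0.440 to 1.83, counting error only). CYP26B1 made up 97.2% ± 0.810 and 96.7% ± 1.13 of the summed CPM per kb of the 2 CYP26 genes.

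The carrier CRABP2, which delivers retinoic acid to the receptors in the nucleus, was a low gene (chromosome 1, 156699606 to 156705816). Its counts were 11, 18 and 17 in the libraries labelled H295R and 45, 21 and 32 in those labelled H295R-PM-Ptc+. The groups did not overlap, but replicate 2 of the second group lay close to the first. The means were 0.619 ± 0.138 and 1.33 ± 0.460 CPM, and the log2 fold change was 1.09 (SE 0.327, adjusted p = 0.113). The replicate differences were 1.73, 0.22 and 0.91, which are further apart than for the other tested members. The adjusted p was 0.0180 with the replicate block, 0.0333 with genes of low counts kept (3.59% of all genes were then called), and 0.247 without both replicate 1 libraries, where the log2 fold change was 0.66. CRABP1 (chromosome 15, 78340324 to 78348230) had 3, 1 and 3 counts against 2, 2 and 2, both groups again at or under that floor, and no fold is given.

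Of the receptor genes, RARG and RARA supplied nearly all of the RNA and RARB was near 0. RARA (chromosome 17, 40309192 to 40357643) had counts of 444, 390 and 415 in the libraries labelled H295R and 512, 444 and 421 in those labelled H295R-PM-Ptc+, and the groups overlapped in CPM. The means were 16.9 ± 1.62 and 18.7 ± 1.17 CPM (SD, n = 3 each), for a log2 fold change of 0.15 (SE 0.101, adjusted p = 0.528) and a fold of 1.11 (95% interval 0.944 to 1.30). RARG (chromosome 12, 53210567 to 53232980) had counts of 1742, 1573 and 1656 against 1746, 1557 and 1448. Its means of 67.3 ± 5.50 and 64.5 ± 3.30 CPM gave a log2 fold change of -0.06 (SE 0.0842, adjusted p = 0.789) and a fold of 0.959 (95% interval 0.840 to 1.09). RARB (chromosome 3, 25174332 to 25597932) had 1, 5 and 5 counts against 2, 4 and 1, a ratio of 0.640 (95% interval 0.210 to 1.81, counting error only). RARB lies opposite to TOP2B, which held 6283 to 9739 counts per library, and RARA opposite to RARA-AS1, with 10 to 31 counts. The counting used strand.

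**Figure D3:**
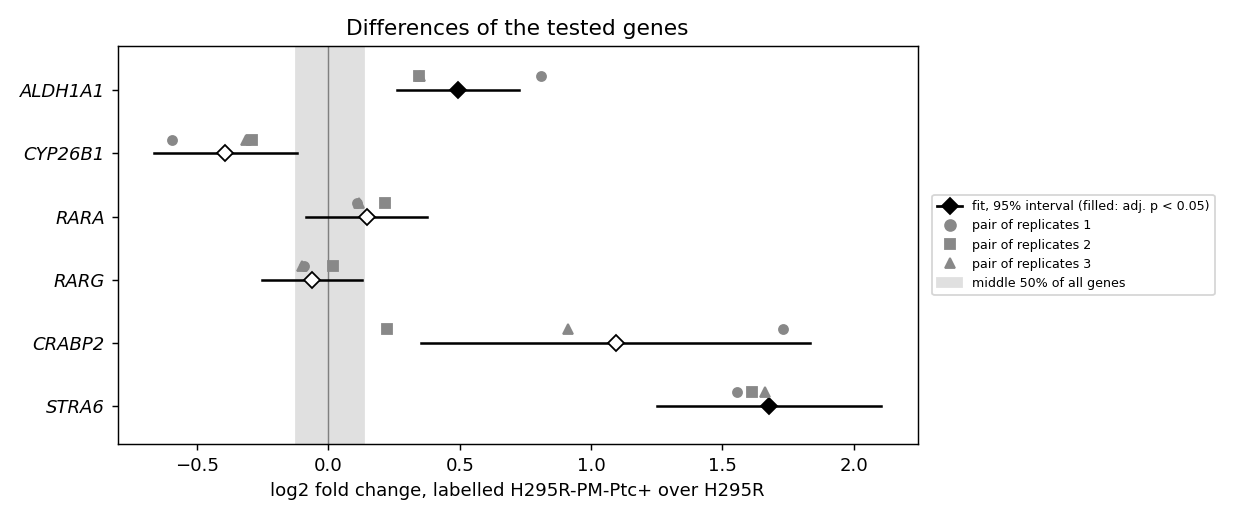
Log2 fold change of libraries labelled H295R-PM-Ptc+ over those labelled H295R for the 5 tested members and STRA6, with the 95% interval as a line, a filled diamond for an adjusted p under 0.05, and grey symbols for the difference within each replicate number (some overlie each other). ALDH1A1 at 0.49 and STRA6 at 1.68 have filled diamonds, and the shaded band holds the middle 50% of all tested genes, from -0.12 to 0.14.

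Ratios within a library, chosen after the values were seen, do not depend on library size and are given as descriptions. RARG over RARA, in CPM per kb, was 3.62, 3.72 and 3.68 in replicates 1, 2 and 3 labelled H295R and 3.15, 3.24 and 3.17 in those labelled H295R-PM-Ptc+. The groups did not overlap, although neither gene passed the test by itself. From the summed counts the ratio in the second group was 0.867 times that in the first (95% interval 0.795 to 0.945, counting error only). The SD over libraries was 1.39% and 1.43% of the mean, below the counting error of 5.03% to 5.66% for 1 library. RARG made up 78.4% ± 0.123 and 75.99% ± 0.196 of the summed CPM per kb of the 3 receptor genes. ALDH1A1 over CYP26B1, the main synthesis gene over the main breakdown gene in RNA level, was 10.9, 12.8 and 13.0 against 29.0, 19.9 and 20.6. Its means were 12.3 ± 1.13 and 23.2 ± 5.08, and replicate 1 of the second group was the highest.

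**Figure D4:**
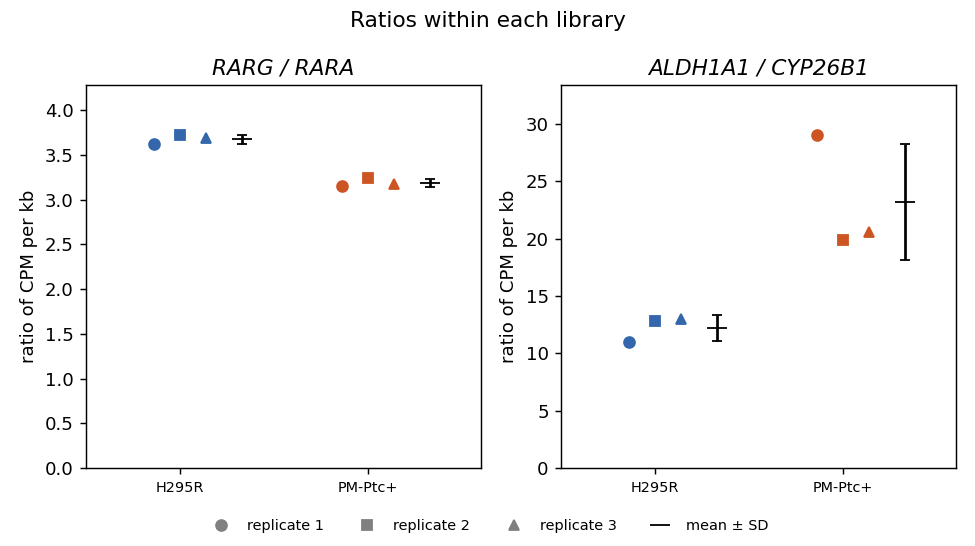
Ratio of CPM per kb within each library for RARG over RARA (left) and ALDH1A1 over CYP26B1 (right), on linear axes from 0, with the mean and SD of 3 libraries beside the points. The left ratio is 3.62 to 3.72 in the libraries labelled H295R and 3.15 to 3.24 in those labelled H295R-PM-Ptc+, and the right ratio is 10.9 to 13.0 and 19.9 to 29.0.

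The wider retinoid pathway was read from 4 lists that share some genes and hold 75 genes in all, of which 74 were in the table and 43 were tested. Of these 43, 1 was called higher and 0 lower, beside 3.73% of all tested genes, and 29 had a positive and 14 a negative log2 fold change. Their median was 0.13, beside 0.00094 for all tested genes, and 11 of the 43 had an unadjusted p under 0.05, beside 17.3%. With the replicate block 13 were called higher and 6 lower, beside 22.5% of all tested genes called under that block.

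The called gene was STRA6, the membrane receptor that takes up retinol from its plasma carrier and a known target of retinoic acid, which stood on 2 of the lists. Its counts were 35, 34 and 26 in the libraries labelled H295R and 115, 107 and 82 in those labelled H295R-PM-Ptc+. All 3 libraries of the second group were far above the first, with means of 1.29 ± 0.212 and 4.12 ± 0.506 CPM. The log2 fold change was 1.68 (SE 0.189, adjusted p = 0.00180), with replicate differences of 1.56, 1.61 and 1.66, and the adjusted p was at most 0.0141 when any 1 library was left out.

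Among the 14 tested genes of retinol uptake, storage and oxidation the median log2 fold change was 0.09. No gene other than STRA6 passed, beside 3.73% of all tested genes called. An unadjusted p under 0.05 was found for 6 of the 14, beside 17.3% of all tested genes. RDH10, a retinol dehydrogenase of the first oxidation step, was at 5.54 CPM over the 6 libraries with a log2 fold change of 0.10 (adjusted p = 0.804). RDH11, a retinaldehyde reductase, was at 80.3 CPM with a log2 fold change of -0.17 (adjusted p = 0.270, or 0.0209 with the replicate block). RDH10 was chosen for mention after its values were seen. Of the 4 tested genes on the list of other breakdown and carriage 0 were called, and 1 had an unadjusted p under 0.05 (17.3% of all tested genes did). CYP1B1, a P450 on that list, had a log2 fold change of 1.02 (SE 0.313, adjusted p = 0.121) at 0.866 CPM. Whether it makes or breaks down retinoic acid in these cells was not tested. The adjusted p of CYP1B1 was 0.0129 with the replicate block and 0.0397 without both replicate 1 libraries.

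Of the 14 tested RXR and co-regulator genes 0 were called, and 2 had an unadjusted p under 0.05, beside 3.73% and 17.3% of all tested genes. RXRA and RXRB, the partners of the receptors, were named after their values were seen and averaged 68.9 and 55.1 CPM, with log2 fold changes of -0.20 (adjusted p = 0.300, or 0.0203 with the replicate block) and 0.09 (adjusted p = 0.600). NCOA3, a receptor co-activator also named after its values were seen, was at 52.1 ± 6.85 and 71.9 ± 9.65 CPM, a log2 fold change of 0.46 (SE 0.125, adjusted p = 0.0856). Its adjusted p was 9.69e-06 with the replicate block, 0.0322 by DESeq2, 0.00779 with low counts kept, 0.0419 without replicate 1 labelled H295R-PM-Ptc+ and 9.26e-04 without both replicate 1 libraries. Of the 13 tested target genes 1 was called, STRA6, and 3 had an unadjusted p under 0.05, beside the same 3.73% and 17.3%. Of these 13, 8 had a positive and 5 a negative log2 fold change. MEIS1, a homeobox gene that retinoic acid induces in many cells, was at 51.5 ± 5.17 and 37.9 ± 4.48 CPM, a log2 fold change of -0.44 (SE 0.110, adjusted p = 0.0655). The adjusted p of MEIS1 was 2.49e-05 with the replicate block, 0.0213 by DESeq2, 0.00849 with low counts kept, 0.0188 without replicate 1 labelled H295R and 0.00236 without both replicate 1 libraries. BHLHE40, on the same list, went the other way, with a log2 fold change of 0.47 (SE 0.265, adjusted p = 0.418). Its adjusted p was 1.53e-04 with the replicate block and 0.00202 without both replicate 1 libraries. The receptor targets CYP26A1 and RARB, with the elements printed above, were at 4 to 8 and 1 to 5 counts per library.

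Some epithelial markers moved with the groups. Of 19 markers of immune, endothelial, fibroblast, epithelial and neural crest cells 6 were tested, all 6 with a positive log2 fold change, and KRT8, KRT18 and EPCAM, epithelial genes, were called higher (log2 fold changes of 2.11, 1.30 and 0.92), beside 3.73% of all tested genes called. CD14, COL1A1 and CHGA did not pass (adjusted p = 0.536, 0.455 and 0.305), and PDGFRA, too low to test, had 31 counts in all against 17. Without replicate 3 labelled H295R, or replicate 2 or 3 labelled H295R-PM-Ptc+, none of these 3 passed (adjusted p from 0.0506 to 0.101). EPCAM also did not pass without replicate 2 labelled H295R (0.136) or replicate 1 labelled H295R-PM-Ptc+ (0.0995). The summed level of the list was 14.6 to 15.7 CPM in the libraries labelled H295R and 22.4 to 24.8 CPM in those labelled H295R-PM-Ptc+. PTPRC and LUM, which mark immune cells and fibroblasts, were at 0 in every library. The part of these markers in the difference of ALDH1A1 was not tested. Of the 12 adrenocortical markers 10 were tested, 5 with a positive and 5 with a negative log2 fold change and a median of -0.03. Only 1 was called, CYP21A2, the steroid 21-hydroxylase, with a log2 fold change of 0.88 (adjusted p = 0.00670).

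The 5 genes whose log2 CPM ran most like that of ALDH1A1 over the 6 libraries were RP11-710M11.1, SULT2A1, DUSP5, RP1-232L22__B.1 and GCC1, with Pearson r from 0.9918 to 0.9972. These are the closest of 16710 genes over 6 libraries in 2 groups, and r is a description. SULT2A1, the sulfotransferase of adrenal androgens, was at 70.2 ± 10.2 and 106 ± 10.7 CPM, a log2 fold change of 0.60 (adjusted p = 0.0306). DUSP5, a phosphatase of the ERK kinases, had a log2 fold change of 0.71 at an adjusted p of 0.0139. Both were called without replicate 1 labelled H295R. SULT2A1 did not pass without any other single library (adjusted p from 0.0617 to 0.0879), nor DUSP5 without replicate 3 labelled H295R (0.0580) or replicate 2 labelled H295R-PM-Ptc+ (0.0567). The other 3 did not pass, with adjusted p from 0.142 to 0.211, and GCC1 had 0.00534 with the replicate block.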

How the data were processed

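The authors aligned reads of paired-end stranded libraries to hg38 with STAR 2.4.0a and counted them per gene name with featureCounts, strand-specific and with multi-mapping reads, on Ensembl GRCh38 release 76. The version of Subread is given as 1.4.6-p1 in the methods and 1.5.0-p3 in the submitters' processing notes. The kit is given as mRNA in the methods and as total RNA in the labels, whose molecule is polyA RNA. The deposited values are whole-number counts per gene with nothing normalized, and 1 unnamed row held 0% of the counts.

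Libraries were grouped by their titles. Counts were scaled by TMM factors (0.985 to 1.03), filtered with filterByExpr and tested with the quasi-likelihood F-test of edgeR 4.0.16 (R 4.3.3, two-sided, group only), with Benjamini-Hochberg adjustment over all 16710 genes. Of these, 624 were called, 404 higher and 220 lower. CPM uses TMM-scaled totals, and CPM per kb divides by the exon length in the table. Differences within a replicate number are on the log2(CPM + 0.1) scale, which understates those of low genes. Ratios of summed counts carry exact or log-normal 95% counting intervals. Reads without molecular identifiers are not independent molecules, so intervals and floors cover counting error only. Genes of one family with similar sequence may share reads, since multi-mapping reads were counted.

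The members and lists were chosen with earlier results of these data known. Genes named are the members, genes of the lists that passed or were highest to 6 per list, PTCH1 and the 5 genes most like the member of smallest adjusted p, and exceptions are stated. Same-numbered replicates deviated together (r = 0.497, 0.307 and 0.228, against -0.352 to 0.150 for other numbers). The main test used the group only and left this out, while the replicate block took the numbers to pair the libraries. Alternatives were the replicate block, DESeq2 1.42.0, limma-voom 3.58.1, RLE factors, no filter, at least 10 counts in every library, each library left out and, added after the data were seen, both replicate 1 libraries left out. Replicates differed beyond counting noise (chi-square per gene 6.02 to 28.4), so none was a copy. BCO1 was not in the table and was not analysed here. One marker on the list of other cell types is not reported here.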

Additional observations from a re-analysis of the deposited data

How the results depend on the processing

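Of the members 1 was called, 3 under the replicate block, 2 when low counts were kept, 2 without both replicate 1 libraries, and 0 to 1 when each library was left out. Over all genes 624 were called, and 3758 under the replicate block, 1111 with low counts kept, 2013 without both replicate 1 libraries and 219 to 810 when each library was left out. On the wider retinoid lists 1 was called, 19 under the replicate block, 3 by DESeq2, 4 with low counts kept, 9 without both replicate 1 libraries and 1 to 3 when each library was left out. Leaving both replicate 1 libraries out was chosen after the data were seen.

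No log2 fold change of the tested members or of the other genes refitted changed sign under these alternatives. Over the 5 tested members 56 of the alternative values stayed on their side of the threshold, 4 passed it and 5 no longer did, the last all for ALDH1A1 with 1 library left out (log2 fold change 0.44 to 0.56, adjusted p 0.0627 to 0.112). The ranges when each library was left out were 0.39 to 0.56 for ALDH1A1, -0.48 to -0.28 for CYP26B1 and 0.82 to 1.34 for CRABP2. Beyond the calls of CYP26B1 and CRABP2, the block changed no member's call. Depth limits ALDH1A2, ALDH1A3, CYP26A1, RARB and CRABP1, at 0 to 8 counts per library, too few for the test. The counting intervals of CYP26A1 and RARB include a ratio of 1.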

Other observations

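The neighbours of the members on the chromosome were read after the values were seen, 5 tested genes on each side, and 50.2% of all tested genes had a positive log2 fold change. Around ALDH1A1, from 71683366 to 75028423 on chromosome 9, 2 of 10 neighbours had a positive and 8 a negative log2 fold change, with a median of -0.16. The positive side held ANXA1, the next tested gene and a calcium-dependent phospholipid-binding protein, at 7.31 ± 0.129 CPM in the libraries labelled H295R and 32.8 ± 9.82 CPM in those labelled H295R-PM-Ptc+, a log2 fold change of 2.17 (SE 0.195, adjusted p = 7.78e-04). ZFAND5, on the other side, had a log2 fold change of -0.19. Around CYP26B1 1 of 10 neighbours was positive and 9 were negative, with a median of -0.09. Around RARA 5 were positive and 5 negative, with a median of 0.02 and KRT222 called higher (log2 fold change 0.46), and around RARG 6 and 4, with a median of 0.09. Around CRABP2 9 of 10 were positive, with a median of 0.17, and NES, the intermediate filament nestin that lies next to it, was called higher with a log2 fold change of 1.44, as was RP11-284F21.10 (3.55).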
